A study of Homo sapiens with 9 samples.

Results

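The genes described here are the 10 Fanconi anemia genes that carry the FANC symbol followed by their complementation letter: FANCA, FANCB, FANCC, FANCD2, FANCE, FANCF, FANCG, FANCI, FANCL and FANCM. They were chosen by name and not by a measured value, from the 58735 genes listed in the count table. Earlier results of these data were known when the choice was made. All 10 passed the filter on low counts that left 16350 genes for testing. RNA-seq had been carried out on SKOV3, an established human ovarian cancer cell line, in 3 groups of 3 libraries. Cells expressing wild-type CDK9 under basal conditions (WT CDK9) were the controls, cells expressing wild-type CDK9 and given an ALK inhibitor for 24 h formed the inhibitor group, and cells expressing CDK9 with tyrosine 19 replaced by phenylalanine (Tyr19Phe CDK9) formed the mutant group, so that all 9 libraries came from cells carrying an introduced CDK9. CDK9 is the kinase of P-TEFb, which releases paused RNA polymerase II, and ALK is a receptor tyrosine kinase. The question asked of these genes was whether their transcripts differed when ALK was inhibited or when the tyrosine was removed. The inhibitor and its dose in this experiment, whether each line was grown from 1 clone, and whether endogenous CDK9 was depleted in these cells are not given in the sources used here, so that line and mutation cannot be told apart.

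Fanconi anemia is an inherited disorder of bone marrow failure and cancer predisposition, and the products of its genes repair DNA interstrand crosslinks. FANCM recognises the stalled fork and anchors the Fanconi core complex, which is built from FANCA with FANCG, from FANCB with the ubiquitin ligase FANCL, and from FANCC, FANCE and FANCF. With the ubiquitin-conjugating enzyme UBE2T, the core complex attaches ubiquitin to FANCD2 and FANCI, which clamp on DNA, and USP1 with its cofactor WDR48 removes it. Nucleases organised by the scaffold SLX4 then unhook the crosslink, and BRCA2, PALB2 and BRCA1 take part in the repair that follows, by homologous recombination. In ovarian cancer, cells that lack these steps are sensitive to platinum and to PARP inhibitors.

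Sequences upstream of the transcription start are shown for FANCF, the only gene of the 10 that passed the test in any comparison. They are also shown for FANCA, which had the largest difference with the inhibitor among the genes below their WT CDK9 level. FANCD2, which receives ubiquitin together with FANCI, is shown as well. RefSeq promoters (GRCh38.p14) matched 9 of the 10 genes by symbol, FANCI being the exception. Each sequence is the 250 bases before the RefSeq start, written 5′ to 3′ on the strand of the gene. Capitals mark matches, on either strand, to the CCAAT box (CCAAT), the GC box (GGGCGG) or the ETS motif (CCGGAAG).
FANCF, chr11:22625824-22626073, minus strand: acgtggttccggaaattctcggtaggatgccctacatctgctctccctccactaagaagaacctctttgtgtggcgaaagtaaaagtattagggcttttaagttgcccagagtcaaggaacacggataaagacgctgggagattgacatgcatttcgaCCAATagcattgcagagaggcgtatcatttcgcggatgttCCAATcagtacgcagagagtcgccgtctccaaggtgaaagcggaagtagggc
FANCA, chr16:89816648-89816897, minus strand: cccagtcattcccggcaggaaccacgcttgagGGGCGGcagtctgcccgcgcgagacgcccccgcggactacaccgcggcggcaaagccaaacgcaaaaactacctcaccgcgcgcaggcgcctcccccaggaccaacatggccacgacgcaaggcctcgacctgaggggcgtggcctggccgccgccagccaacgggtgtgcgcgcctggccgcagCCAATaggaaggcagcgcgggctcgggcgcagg
FANCD2, chr3:10026187-10026436, plus strand: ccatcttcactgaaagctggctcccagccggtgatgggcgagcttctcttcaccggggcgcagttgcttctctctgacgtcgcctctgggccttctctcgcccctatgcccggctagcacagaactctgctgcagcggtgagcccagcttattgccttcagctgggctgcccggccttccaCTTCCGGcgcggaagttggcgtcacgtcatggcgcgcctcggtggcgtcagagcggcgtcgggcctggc
The FANCF sequence held 2 CCAAT boxes, which began 92 and 52 bases before the start, and no GC box. Its GC content was 49.2% with 14 CpG dinucleotides, beside medians of 58% and 11 over 35116 promoters. The FANCA sequence held 1 CCAAT box at 33 bases and 1 GC box at 218 bases before the start, with a GC content of 72% and 31 CpG dinucleotides. In FANCD2 a match to the ETS motif lay 69 bases before the start.

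The CCAAT box occurred in 3 of the 9 matched promoters (FANCA, FANCF and FANCM) and in 32% of all promoters. The GC box occurred in 6 of the 9 and in 42.6% of all promoters, and the ETS motif in 1 of the 9 and in 8.52%. None of the 9 sequences held the E2F letters searched (TTTGGCGC, TTTCGCGC or TTTCCCGC, present in 2.32% of all promoters), the CHR letters (TTTGAA or TTCGAA, 14.3%) or the CRE (TGACGTCA, 1.65%). No matches in the 3 printed sequences overlapped each other. The matches are a description of letters and were not tested as binding sites.

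The libraries held between 18169050 and 29320184 counts, those of Tyr19Phe CDK9 being the deepest (26485891 to 29320184), and the 10 genes together received 10299 to 17031 counts in each. Replicate 2 of the inhibitor group and replicate 3 of Tyr19Phe CDK9 stood apart from their groups, with 19944 and 20635 genes at 1 count or more where the other libraries had 21241 to 22744. The epithelial markers KRT8, KRT18, KRT19, ERBB2 and CD24 were present in every library, with KRT8 at 1260 to 1726 CPM (counts scaled to a common library size), whereas CDH1 was nearly absent at 1 to 18 counts. Markers of blood, endothelium and fibroblasts were at or near 0, the highest being VWF at 1 to 17 counts. CDK9 itself, whose counts do not separate the introduced from the endogenous copy, had a log2 fold change of −0.09 with the inhibitor and 0.18 with Tyr19Phe CDK9 (adjusted p = 0.665 and 0.106, edgeR quasi-likelihood test). CDK9 was higher in Tyr19Phe CDK9 than in the inhibitor group by 0.27 on the log2 scale (adjusted p = 0.00961). The labels do not say that the libraries of a group came from separate cultures, so p-values measure the spread between libraries, which may be technical.

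All 10 genes were transcribed in SKOV3 cells, at levels that differed more between genes than between groups. Per length (RPKM, counts per kilobase of the deposited gene length, scaled by library size), the WT CDK9 mean was highest for FANCI at 25.6 ± 0.54 (SD, n = 3), followed by FANCG at 20.7 ± 0.42, FANCD2 at 13.7 ± 0.034 and FANCL at 10.9 ± 0.13. FANCA followed at 8.14 ± 0.58 RPKM and FANCF at 6.20 ± 0.10 RPKM. The lowest levels were those of FANCE at 3.86 ± 0.29, FANCC at 2.93 ± 0.14, FANCB at 2.48 ± 0.15 and FANCM at 1.76 ± 0.21 RPKM. In WT CDK9 the ranges of the 3 libraries did not overlap between any neighbours in this order. In the inhibitor group the order of FANCA and FANCF was exchanged (7.01 and 7.28 RPKM) with overlapping ranges, and in Tyr19Phe CDK9 their ranges also overlapped (7.98 and 7.90 RPKM). The deposited length counts every annotated exon, and with the length of the canonical GENCODE transcript FANCC moved above FANCF, at 8.16 beside 5.56 RPKM in WT CDK9. FANCI stayed highest (42.1 RPKM) and FANCM lowest (2.10 RPKM) with that length. Counts behind these values ranged from 120 for FANCB in the inhibitor group to 5724 for FANCI in Tyr19Phe CDK9.

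**Figure D1:**
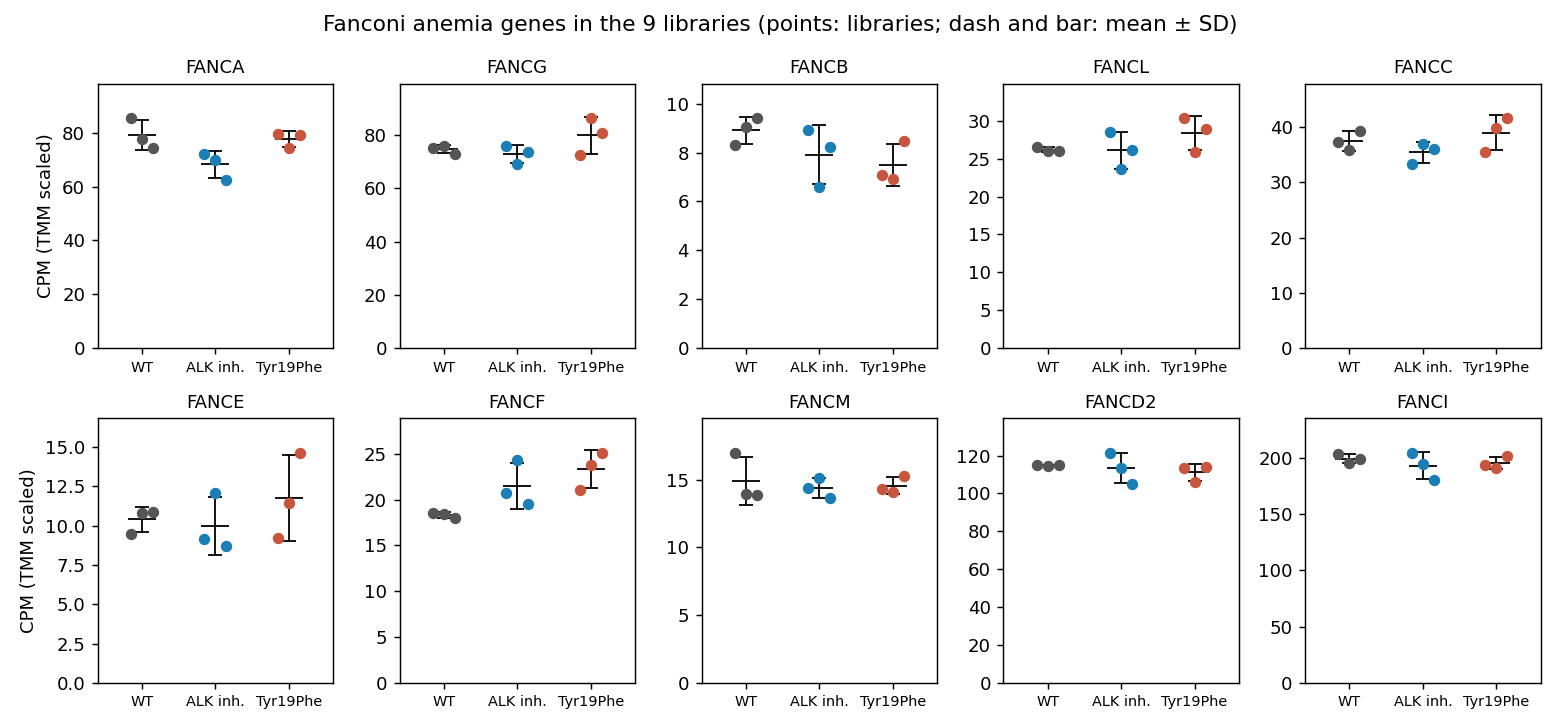
Expression of the 10 Fanconi anemia genes in CPM (y axis of each panel, from 0) in the 3 libraries of WT CDK9, ALK inhibitor and Tyr19Phe CDK9 (points), with the group mean and SD (dash and bar). For FANCF the 3 WT CDK9 libraries sit between 18.0 and 18.5 CPM, below every other library, and for FANCI the 9 libraries lie between 180.3 and 204.3 CPM. The share of all tested genes separated as FANCF is was not computed, and its inhibitor difference was not called.

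With the ALK inhibitor, none of the 10 genes passed the test at an adjusted p under 0.05, whereas 2.73% of all tested genes were called lower and 1.82% higher than in WT CDK9. DESeq2 also called 0 of the 10, and 1 gene (FANCA, lower) had an unadjusted p under 0.05. The log2 fold changes lay between −0.21 (FANCA) and 0.23 (FANCF). Of the 10 genes 9 were below 0, beside 8227 of all 16350 tested genes. The median of the 10 was −0.05, where the median of all tested genes was −0.0010. Library totals alone in place of TMM scaling moved that overall median by 0.026 and turned the sign of FANCD2 and FANCL, and it changed the split of called genes from 447 lower and 297 higher to 344 lower and 406 higher. The CPM ranges of the libraries did not overlap for 2 of the 10 genes (FANCA and FANCF), beside 19.6% of all tested genes.

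With Tyr19Phe CDK9, 1 of the 10 genes was called, FANCF, which was higher, and 0 were called lower. Among all tested genes 7.61% were called higher and 10.4% lower in this comparison, so that 1 of 10 is near the background. The log2 fold changes ran from −0.25 (FANCB) to 0.35 (FANCF), 5 genes lying below 0 and 5 above, and their median of 0.01 was close to that of all tested genes, 0.0035. CPM ranges did not overlap for FANCF and FANCD2, 2 of the 10, beside 32.6% of all tested genes. Between Tyr19Phe CDK9 and the inhibitor group 0 of the 10 genes were called, where 11.1% of tested genes were lower and 9.57% higher in Tyr19Phe CDK9, and 1 gene, FANCA, had an unadjusted p under 0.05. The comparisons with WT CDK9 share its 3 libraries, and their values are therefore given side by side without a test of likeness.

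**Figure D2:**
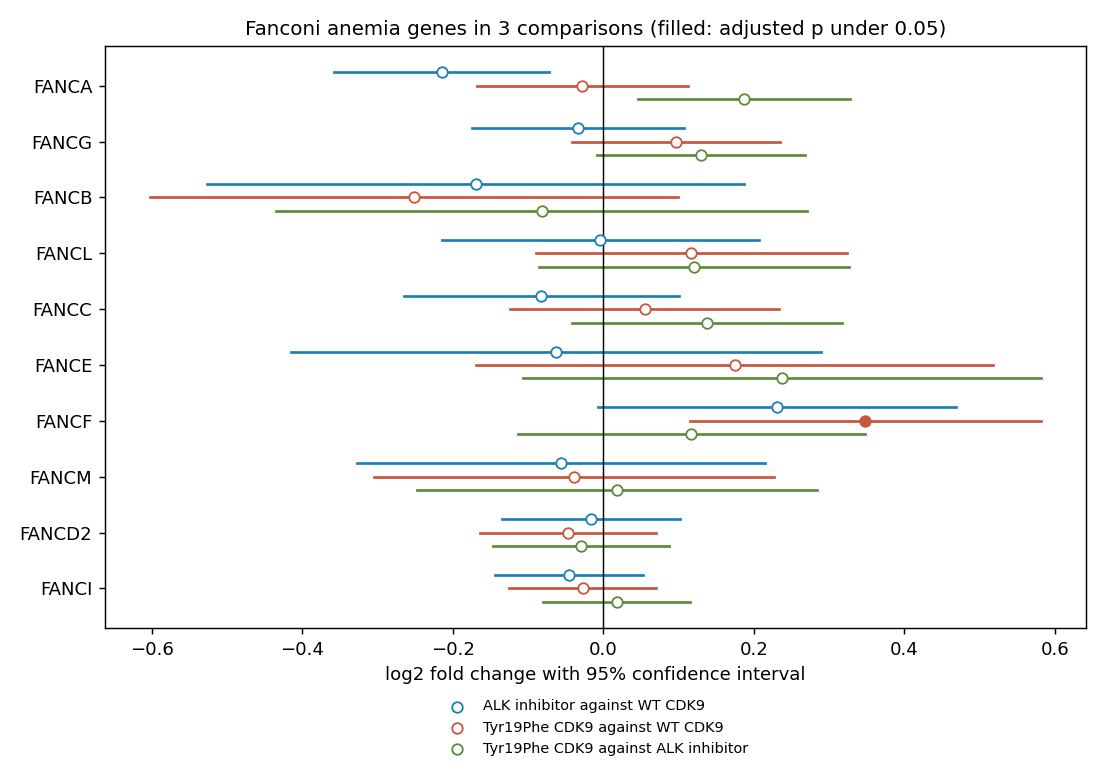
Log2 fold change (x axis) with its 95% confidence interval for each of the 10 Fanconi anemia genes (y axis, ordered by role) in 3 comparisons, the group named before "against" minus the other. A filled point marks an adjusted p under 0.05, which FANCF reached against WT CDK9 at 0.35 in Tyr19Phe CDK9, while the intervals of FANCD2 and FANCI are the narrowest and cross 0 in all 3.

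FANCF, the adaptor that joins FANCC and FANCE to the rest of the core complex, was higher in Tyr19Phe CDK9 and had an intermediate level with the inhibitor. In WT CDK9 its libraries gave 18.5, 18.4 and 18.0 CPM (361, 349 and 336 counts). With the inhibitor they gave 20.7, 24.3 and 19.5 CPM (437, 442 and 377 counts). In Tyr19Phe CDK9 they gave 21.1, 23.8 and 25.1 CPM (622, 668 and 665 counts). All 6 libraries of the inhibitor and Tyr19Phe CDK9 groups thus lay above the 3 WT CDK9 libraries, and the inhibitor and Tyr19Phe CDK9 groups overlapped each other. Both groups were set against the same WT CDK9 libraries, which were closely spaced (18.3 ± 0.30 CPM, SD, n = 3). The share of all tested genes separated in this way was not computed. FANCF rose by 27.3% in Tyr19Phe CDK9 (95% confidence interval 8.30% to 49.6%, log2 fold change 0.35, SE 0.11, adjusted p = 0.0306 over 16350 genes, edgeR). The inhibitor estimate was 17.4% (−0.449% to 38.4%, adjusted p = 0.348), and the groups differed from each other by 8.45% (−7.57% to 27.2%, adjusted p = 0.529).

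The highest FANCF level in each of these groups was in the library that stood apart, replicate 2 of the inhibitor group and replicate 3 of Tyr19Phe CDK9. Without both libraries the log2 fold change in Tyr19Phe CDK9 was 0.30 and the call was lost (adjusted p = 0.0923). The call was also lost without WT CDK9 replicate 1, 2 or 3 (adjusted p = 0.0701, 0.0598 and 0.0860) and without Tyr19Phe CDK9 replicate 2 or 3 (0.0856 and 0.123). It held without Tyr19Phe CDK9 replicate 1 (0.0209), and the log2 fold change lay between 0.30 and 0.42 in all 16 alternatives that refitted the gene.

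FANCF differs from the other 9 genes in structure, since its canonical GENCODE transcript is 1 exon of 3291 bases without an intron. The others have between 10 exons (FANCB and FANCE) and 44 exons (FANCD2). FANCF also has the shortest deposited span, 2952 bases on chromosome 11 (22622890 to 22625841, minus strand, hg38), where the longest, FANCC, covers 327743 bases. GENCODE and the deposited annotation place the ends of FANCF differently, so that its transcript length exceeds this span. GAS2 lies on the opposite strand and overlaps 11.3% of FANCF, with only 13 to 53 counts per library. The 30 tested genes within 5 Mb of FANCF centred on a log2 difference of 0.0012 (their median) in Tyr19Phe CDK9, with 4 of them called lower and 0 higher. Of the tested genes nearest to FANCF, GAS2 had a log2 fold change of 0.17 (adjusted p = 0.885), and SVIP and ANO5, farther away, fell by 0.39 and 0.34 on the log2 scale (adjusted p = 0.00621 and 0.0155).

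The other members of the FANCF module did not pass the test. FANCE, which contacts FANCD2 directly, had 9.49, 10.8 and 10.9 CPM in WT CDK9, 9.16, 12.1 and 8.68 CPM with the inhibitor, and 9.21, 11.4 and 14.6 CPM in Tyr19Phe CDK9. Its highest value in each treated or mutant group was again in the library that stood apart, and its log2 fold change in Tyr19Phe CDK9 was 0.17 (SE 0.17) with all libraries and −0.0065 without both. FANCC, the partner of FANCE, had a mean of 37.5 ± 1.8 CPM in WT CDK9, 35.4 ± 1.9 with the inhibitor and 39.0 ± 3.2 in Tyr19Phe CDK9 (SD, n = 3). The intervals of its differences from WT CDK9 were −16.8% to 7.21% for the inhibitor and −8.22% to 17.6% for Tyr19Phe CDK9.

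FANCA, the subunit most often mutated in patients, had the lowest fold change of the 10 with the inhibitor. Its WT CDK9 libraries gave 85.5, 77.6 and 74.6 CPM, the inhibitor libraries 72.2, 70.0 and 62.5 CPM, and the Tyr19Phe CDK9 libraries 79.5, 74.4 and 79.2 CPM. The 3 inhibitor libraries were the lowest of the 9, and those of WT CDK9 and Tyr19Phe CDK9 overlapped. Between the inhibitor and WT CDK9 alone, 19.6% of all tested genes had ranges that did not overlap. The share lying apart from both other groups was not computed. The inhibitor difference was −13.8% (−22.0% to −4.85%, log2 fold change −0.21, SE 0.07) and missed the threshold at an adjusted p of 0.0791, with 0 of 16 alternatives below it. Against the inhibitor group, Tyr19Phe CDK9 was at 13.9% (3.25% to 25.6%) with an adjusted p of 0.0524, and 7 of 16 alternatives put it past the threshold. In Tyr19Phe CDK9 the difference from WT CDK9 was −1.89% (−11.0% to 8.13%). ZNF276, on the opposite strand, overlaps 4.24% of FANCA and its own log2 fold changes were −0.19 with the inhibitor and 0.26 in Tyr19Phe CDK9 (adjusted p = 0.398 and 0.0701). Between Tyr19Phe CDK9 and the inhibitor group ZNF276 was higher by 0.45 (adjusted p = 0.00122). The tested genes within 5 Mb of FANCA, 73 in all, had a median of −0.03 with the inhibitor.

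FANCG, which binds FANCA, remained near its WT CDK9 level of 74.6 ± 1.5 CPM, with 72.9 ± 3.4 with the inhibitor and 79.8 ± 7.0 in Tyr19Phe CDK9. Its intervals were −11.4% to 7.75% and −2.87% to 17.7%. FANCL, the ubiquitin ligase, had 26.2 ± 0.31, 26.1 ± 2.5 and 28.4 ± 2.3 CPM in the same order of groups, with intervals of −13.8% to 15.4% and −6.00% to 25.1%. FANCB, the X-linked partner of FANCL, was among the least expressed, at 8.91 ± 0.56, 7.91 ± 1.2 and 7.49 ± 0.87 CPM. Its differences of −11.1% with the inhibitor and −16.0% in Tyr19Phe CDK9 had wide intervals (−30.6% to 13.8% and −34.2% to 7.14%), which is the precision that 120 to 225 counts gave. FANCM, the DNA translocase that anchors the core complex, had 14.9 ± 1.8, 14.4 ± 0.73 and 14.6 ± 0.64 CPM, and its intervals were −20.3% to 16.0% and −19.0% to 17.1%. None of these genes passed the test in any of the 3 comparisons.

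The substrates of the core complex, FANCD2 and FANCI, were the most highly expressed of the 10 by CPM and the most precisely measured, and neither passed the test in any comparison. FANCI had 203.4, 195.0 and 199.0 CPM in WT CDK9, 204.3, 194.2 and 180.3 CPM with the inhibitor, and 193.8, 191.1 and 201.3 CPM in Tyr19Phe CDK9. The 3 groups overlapped, and the differences from WT CDK9 were −3.11% (−9.51% to 3.75%) and −1.89% (−8.31% to 4.98%). FANCD2 had 115.0, 114.5 and 114.9 CPM in WT CDK9, 121.4, 113.7 and 105.2 CPM with the inhibitor, and 113.4, 106.1 and 113.9 CPM in Tyr19Phe CDK9. Its Tyr19Phe CDK9 libraries all lay below the closely spaced WT CDK9 libraries, yet the difference was only −3.18% (−10.7% to 4.99%, adjusted p = 0.656). With the inhibitor the FANCD2 difference was −1.15% (−8.93% to 7.30%). POLG overlaps 16.5% of FANCI on the opposite strand, with 2051 to 3495 counts, and had log2 fold changes of 0.04 and 0.05 in the comparisons with WT CDK9. FANCD2OS overlaps 27.3% of FANCD2 with 1 to 18 counts, and the pseudogene FANCD2P2 had 0 to 7 counts. The counts measure transcripts and say nothing of the ubiquitin on either protein.

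Added over the 10 genes, the level was 577.0 to 596.0 CPM in WT CDK9, 533.7 to 589.0 CPM with the inhibitor and 576.7 to 609.2 CPM in Tyr19Phe CDK9, so that all 3 groups overlapped. The FANCA and FANCG module alone summed to 147.6 to 160.4 CPM in WT CDK9, to 136.0 to 148.2 CPM with the inhibitor and to 152.0 to 160.7 CPM in Tyr19Phe CDK9. The module of FANCC, FANCE and FANCF summed to 65.0 to 68.2, 63.2 to 73.3 and 65.7 to 81.3 CPM. In both modules the inhibitor and WT CDK9 groups overlapped.

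**Figure D3:**
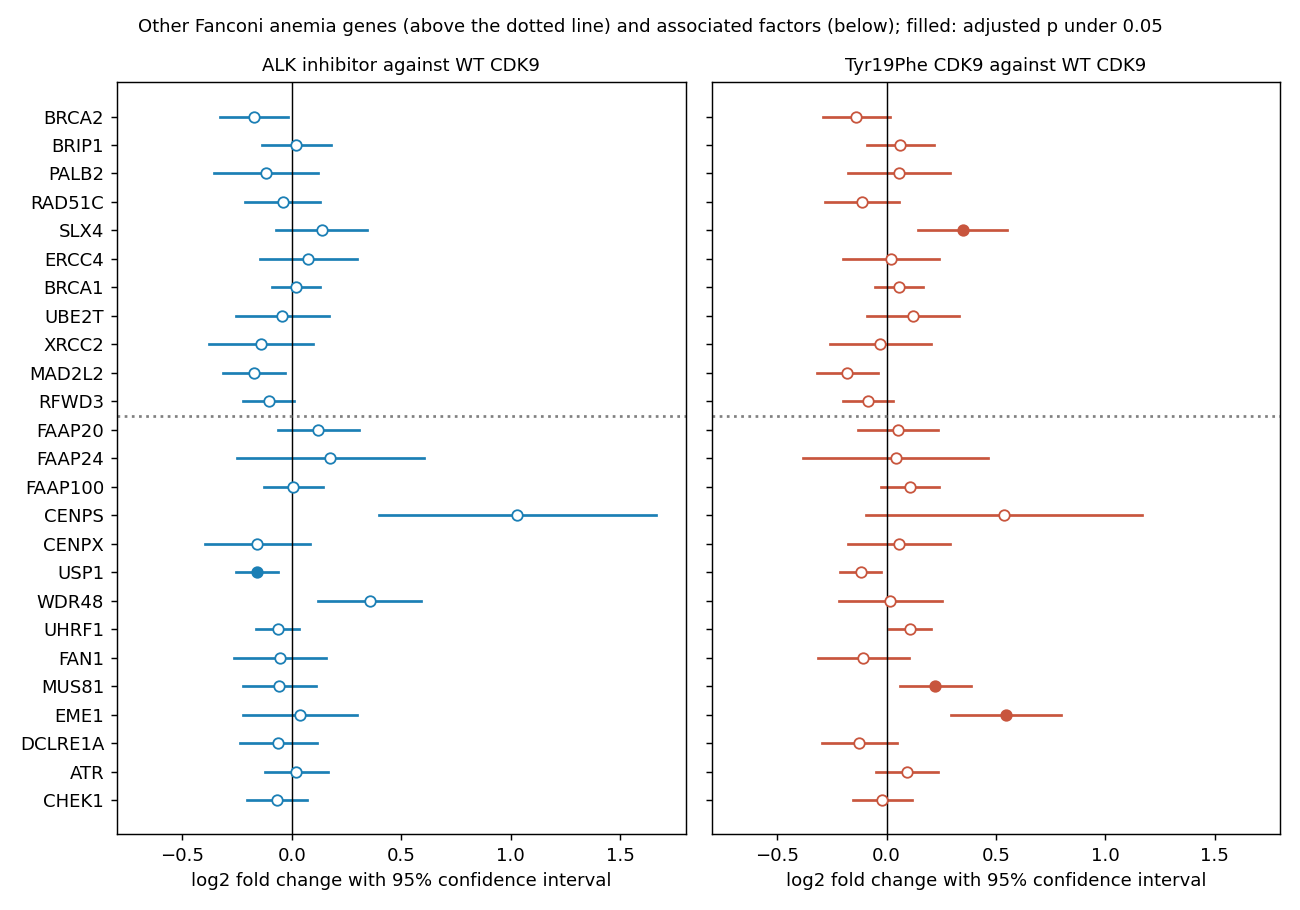
Log2 fold change with its 95% confidence interval (x axis) for 11 of 12 further Fanconi anemia genes and 14 associated factors (y axis), with the inhibitor (left) and in Tyr19Phe CDK9 (right), each against WT CDK9. Filled points passed an adjusted p of 0.05, namely USP1 at −0.16 on the left and SLX4, MUS81 and EME1 at 0.35, 0.22 and 0.54 on the right.

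The wider pathway was followed in 26 further genes, 12 Fanconi anemia genes known by other symbols and 14 associated factors, all of which were tested. In Tyr19Phe CDK9, 3 of the 26 were higher than in WT CDK9 and 0 were lower, beside 7.61% and 10.4% of all tested genes. The 3 of 26 called higher are thus near the background, and the median log2 fold change of the 26 was 0.05. The 3 genes were SLX4, MUS81 and EME1. SLX4 is the scaffold for structure-specific nucleases, and MUS81 and EME1 form one of the nucleases it holds. ERCC4, the catalytic subunit of another, had a log2 fold change of 0.02 (adjusted p = 0.936). In EME1 the WT CDK9 libraries gave 13.9, 16.5 and 17.8 CPM and the Tyr19Phe CDK9 libraries 22.9, 22.1 and 25.2 CPM, without overlap. EME1 rose by 0.54 on the log2 scale (SE 0.12, adjusted p = 0.00159) and was called in all 16 alternatives. SLX4 gave 29.0, 32.2 and 28.9 CPM in WT CDK9 and 37.7, 33.1 and 43.9 CPM in Tyr19Phe CDK9, the highest in the library that stood apart. SLX4 rose by 0.35 (SE 0.10, adjusted p = 0.0118), called in 12 of 16 alternatives.

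MUS81 gave 43.2, 48.0 and 42.5 CPM in WT CDK9 and 48.2, 52.7 and 55.1 CPM in Tyr19Phe CDK9, a rise of 0.22 (SE 0.08, adjusted p = 0.0498) that was called in 9 of 16 alternatives. Only EME1 among these 3 was called without both libraries that stood apart. The counts of MUS81 and EME1 are uncertain, since CFL1 overlaps 46.6% of MUS81 on the opposite strand and LRRC59 overlaps 77.7% of EME1, both strongly expressed (15995 to 31072 and 5792 to 8811 counts), and strand-specific counting is not stated. CFL1 rose in Tyr19Phe CDK9 by 0.22 (adjusted p = 7.84e-05), the same size as MUS81, whereas LRRC59 had a log2 fold change of −0.09 (adjusted p = 0.156), opposite in sign to EME1. The part of overlapping transcripts in these counts was not tested.

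With the inhibitor, 1 of the 26 genes was lower and 0 were higher, beside 2.73% and 1.82% of all tested genes, and the median was −0.05. The gene was USP1, the ubiquitin protease of FANCD2 and FANCI, which gave 257.1, 239.0 and 244.1 CPM in WT CDK9 and 225.5, 227.2 and 209.7 CPM with the inhibitor. USP1 fell by 0.16 on the log2 scale (SE 0.05, adjusted p = 0.0434), and the call held in 8 of 16 alternatives and in only 1 of the 6 that left out a library. The largest difference of the 26 was that of CENPS, a subunit of the complex that binds FANCM, at 1.69, 2.43 and 1.71 CPM in WT CDK9 and 4.75, 4.12 and 3.05 CPM with the inhibitor. These ranges did not overlap, and the log2 fold change of 1.03 (SE 0.31) missed the threshold at an adjusted p of 0.0502. CENPS took the place of USP1 as the only called gene with upper quartile scaling and with library totals alone. Its count is uncertain, since the readthrough gene CENPS-CORT covers the whole of it on the same strand. The log2 fold change of USP1 in Tyr19Phe CDK9 was −0.12 (adjusted p = 0.0757). WDR48, the cofactor of USP1, gave 17.4, 18.3 and 19.5 CPM in WT CDK9, 22.1, 26.6 and 22.0 CPM with the inhibitor and 19.5, 18.7 and 17.7 CPM in Tyr19Phe CDK9. The WDR48 difference with the inhibitor was 0.35 with an adjusted p of 0.0791, while between Tyr19Phe CDK9 and the inhibitor group WDR48 was called lower, by −0.34 (adjusted p = 0.0313).

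In that direct comparison 3 further genes of the 26 were higher in Tyr19Phe CDK9, EME1 by 0.51 (adjusted p = 0.00279), MUS81 by 0.28 (adjusted p = 0.0107) and UHRF1, which binds crosslinked DNA, by 0.17 (adjusted p = 0.00859). Of all tested genes 9.57% were called higher and 11.1% lower in this comparison, beside 3 and 1 of the 26. Without both libraries that stood apart 0 of the 26 were called in it. The other 20 genes of the list were not called in any comparison. They included BRCA1, BRCA2, PALB2 and BRIP1, whose log2 fold changes were 0.02, −0.17, −0.12 and 0.02 with the inhibitor and 0.06, −0.14, 0.06 and 0.06 in Tyr19Phe CDK9. UBE2T, the partner of FANCL, was at −0.04 and 0.12.

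**Figure D4:**
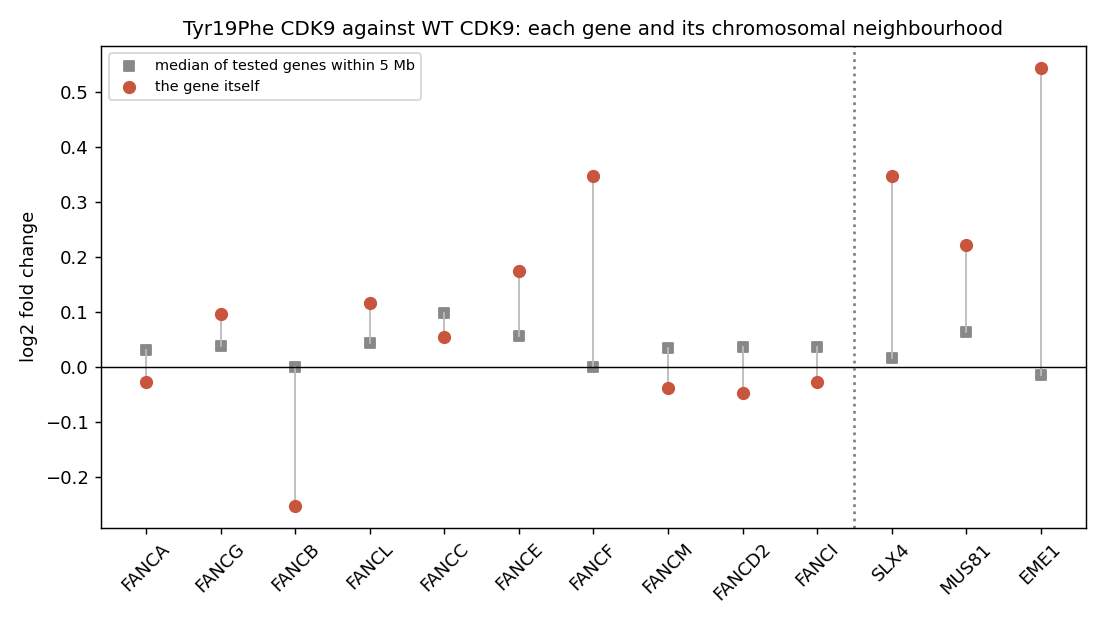
Log2 fold change between Tyr19Phe CDK9 and WT CDK9 (y axis) of each of the 10 Fanconi anemia genes and of SLX4, MUS81 and EME1 (x axis, circles), beside the median of all tested genes within 5 Mb on the same chromosome (squares). The medians lie between −0.01 and 0.10. FANCF and SLX4 at 0.35 and EME1 at 0.54 stand farthest above theirs, and FANCB at −0.25 lies farthest below.

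The chromosomal neighbourhoods of these genes had medians near 0 in the comparisons with WT CDK9. In Tyr19Phe CDK9 the tested genes within 5 Mb had medians between 0.0011 (FANCB) and 0.10 (FANCC) around the 10 Fanconi anemia genes. The medians were 0.02 around SLX4, 0.06 around MUS81 and −0.01 around EME1. With the inhibitor they lay between −0.06 (FANCB) and 0.03 (FANCL) around the 10 genes. Between Tyr19Phe CDK9 and the inhibitor group they lay between −0.07 (FANCF) and 0.10 (FANCA). Around FANCA 13 of 73 tested genes were called higher and 7 lower in that comparison. Around UHRF1 48 of 239 were higher and 17 lower, and around MUS81 42 of 234 were higher and 17 lower. Of all tested genes 9.57% were higher and 11.1% lower.

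Since the Fanconi anemia pathway acts in S phase, the 43 S phase genes of a published cell cycle list, 4 of which are also among the 26, were read beside them. With the inhibitor 35 of the 43 lay below 0, with a median log2 fold change of −0.09, and 4 were called lower (PCNA, TYMS, USP1 and POLA1) and 0 higher, beside 2.73% and 1.82% of all tested genes. The 9 of 10 Fanconi anemia genes below 0 in that comparison, with a median of −0.05, lay beside this list, whose part in their levels was not tested. Of all 16350 tested genes, 8227 lay below 0. None of the 9 passed the test, and FANCD2, FANCE, FANCG, FANCI, FANCL and FANCM changed sign in some alternatives. In Tyr19Phe CDK9, 6 of the 43 were lower (PCNA, CENPU, SLBP, ATAD2, RRM2 and POLA1) and 3 higher (MCM5, TYMS and FEN1), beside 10.4% and 7.61% of all tested genes, with a median of −0.05. Against the inhibitor group, Tyr19Phe CDK9 had 1 lower and 5 higher, beside 11.1% and 9.57% of all tested genes, with a median of 0.06.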

How the data were processed

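RNA-seq of SKOV3 cells was deposited as 1 table of raw counts per gene, which the authors made from reads mapped to hg38. The submitters' processing notes name CASAVA, HISAT2 2.0.5 and featureCounts 1.5.0-p3, without their order or roles, and the annotation release and strandedness of counting are not given in the sources used here. Groups followed the sample labels. The deposited counts were analysed with edgeR 4.0.16 (R 4.3.3) by a quasi-likelihood F test in 1 fit of all 9 libraries, with TMM scaling, filterByExpr at a minimum count of 10 and Benjamini-Hochberg adjustment over 16350 genes. A gene was called at an adjusted p under 0.05, and intervals are 95% intervals of the fit (31.4 degrees of freedom). CPM and RPKM were computed from the counts with TMM library sizes. Libraries held 18169050 to 29320184 counts, and a floor of 3 counts equals 0.102 to 0.165 CPM. Gene models came from GENCODE 44 and promoters from RefSeq. The scripts were tested on simulated counts.

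The 10 genes, the lists and the alternatives were chosen with earlier results of these data known. All 10 genes are named, those called in any comparison and FANCD2 and FANCI are given in every library, and of the 26 further genes those called are named. FANCA, FANCE and the uncalled genes of the 26 that carry values were named after their values were seen, as were the overlapping and neighbouring genes and the called S phase genes. Alternatives were other scalings, DESeq2 1.42.0, other filters and thresholds, the replicate number as a block, protein-coding genes only, fits of only the 2 groups compared, and each library left out in turn. Values of 1 gene of the 26 are not reported here.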

Additional observations from a re-analysis of the deposited data

How the results depend on the processing

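Of the 10 genes, 0 were called with the inhibitor, and this became 1 only at an unadjusted p under 0.05 (FANCA). The count of 1 in Tyr19Phe CDK9 (FANCF) became 0 at an adjusted p under 0.01 and without both libraries that stood apart (an alternative chosen after seeing the data), and ranged from 0 to 1 when a library was left out. The count of 0 between Tyr19Phe CDK9 and the inhibitor group became 1 (FANCA) at an unadjusted p under 0.05, with upper quartile scaling, with no filter beyond 1 count, with at least 10 counts in every library, with protein-coding genes only and with only the 2 groups compared, and ranged from 0 to 1 with a library left out (1 without ALK inhibitor replicate 1). Same-numbered libraries did not deviate together (correlations of −0.012 to 0.026). The labels do not say whether they were prepared together, which these correlations cannot decide. The fit with the replicate number as a block gave 1 call between Tyr19Phe CDK9 and the inhibitor group (FANCA, adjusted p = 0.0371, edgeR). It changed no other count.

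Of the 26 further genes, the 1 called with the inhibitor became 5 at an unadjusted p under 0.05, 0 at an adjusted p under 0.01 and without both libraries that stood apart, and 2 (CENPS added) with DESeq2, with its size factors and with at least 10 counts in every library. With upper quartile scaling, with library totals alone and without ALK inhibitor replicate 3 the count stayed at 1, but the called gene was CENPS (higher) in place of USP1 (lower). The count ranged from 0 to 2 with a library left out. Of the fits without 1 library, only the fit without WT CDK9 replicate 2 called USP1. The 3 called in Tyr19Phe CDK9 became 6 at an unadjusted p under 0.05 and 1 (EME1) at an adjusted p under 0.01, without both libraries that stood apart and without WT CDK9 replicate 1 or 3 or Tyr19Phe CDK9 replicate 3, in a range of 1 to 4 with a library left out. The 4 called between Tyr19Phe CDK9 and the inhibitor group became 2 at an adjusted p under 0.01, 0 without both libraries that stood apart and ranged from 2 to 4 with a library left out (2 without Tyr19Phe CDK9 replicate 3).

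None of the differences that changed sign had passed the test. With the inhibitor FANCD2 was at 0.0089 with library totals alone, FANCL at 0.0063 with upper quartile scaling, 0.022 with library totals alone and 0.065 without both libraries that stood apart, and FANCG at 0.0050 without both. In Tyr19Phe CDK9 FANCE was at −0.0065 without both. With a library left out, the inhibitor log2 fold change ranged from −0.066 to 0.034 for FANCD2, −0.22 to 0.026 for FANCE, −0.062 to 0.0052 for FANCG, −0.086 to 0.00042 for FANCI, −0.071 to 0.065 for FANCL, −0.10 to 0.050 for FANCM, −0.088 to 0.0025 for MUS81 and −0.058 to 0.12 for EME1. That of Tyr19Phe CDK9 against WT CDK9 ranged from −0.066 to 0.034 for FANCA, −0.0062 to 0.33 for FANCE, −0.085 to 0.068 for FANCM and −0.017 to 0.061 for WDR48, and against the inhibitor group from −0.20 to 0.015 for FANCB, −0.081 to 0.023 for FANCD2, −0.027 to 0.062 for FANCI and −0.017 to 0.054 for FANCM. The other differences of the 10 genes and of USP1, SLX4, MUS81, EME1, WDR48 and UHRF1 kept their direction in the alternatives run, which did not cover the remaining genes, and the cause of these changes was not tested. The scalings moved the median of all tested genes by at most 0.026. Depth limits FANCB most, at 120 to 225 counts.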
